A study of Homo sapiens with 18 samples.

Results

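The SKmel147 line KO3.20, with 2 libraries, was compared with the mean of the lines KO1.4 and KO1.5, with 2 libraries each. These 6 of the 18 libraries of the series were chosen by line name, and no library of a control line entered the fit. SKmel147 is a human cell line from a metastatic melanoma that carries NRAS Q61R. All 3 lines are labelled as knockouts of ARID2 and carry constructs of the same kind, a lentiviral Cas9 and a PLKO vector with a guide RNA, by stable infection. They were grown in DMEM with serum. The names of the lines differ in their first digit, but the labels say neither which guide a line carries nor whether it is a clone or a pool. They also do not say whether the 2 libraries of a line are separate cultures, so p-values measure the spread between libraries, which may be technical. The other SKmel147 lines of the series are Par, which has no construct, and NT, which has constructs of this kind and whose name the labels do not spell out. The comparison asked how far knockout lines of 1 gene differ from each other when no control is shared between them.

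ARID2 is the subunit with an AT-rich DNA-interaction domain that distinguishes the PBAF form of the SWI/SNF complex from the BAF forms. SWI/SNF complexes use ATP to slide or evict nucleosomes, and PBAF is recruited to acetylated chromatin through the bromodomains of PBRM1 and BRD7. In melanoma, ARID2 is among the SWI/SNF genes that carry loss-of-function mutations.

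The transcript of ARID2, the targeted gene, was at 56.9 and 57.1 CPM (counts scaled to a common library size) in KO1.4, at 55.3 and 46.1 CPM in KO1.5 and at 39.9 and 46.9 CPM in KO3.20. In the control lines it was at 73.3 and 67.5 CPM (Par) and at 66.4 and 62.4 CPM (NT), above all 6 knockout libraries. The lower library of KO1.5 and the higher library of KO3.20 overlapped, and the log2 fold change of KO3.20 against the mean of the other 2 lines did not pass the test (-0.31 ± 0.10, SE; adjusted p = 0.104, edgeR's quasi-likelihood test with Benjamini-Hochberg, BH, adjustment over all genes). Without replicate 2 of KO1.5 it did (-0.38, adjusted p = 0.0153). The RNA level does not show whether a guide disrupted the reading frame. Of the other PBAF subunits, PBRM1 had a log2 change of 0.18 ± 0.09 (adjusted p = 0.288), BRD7 of -0.12 ± 0.08 and PHF10 of 0.15 ± 0.09. None passed the test in this comparison. Against KO1.5 alone, 1 of the 4 PBAF subunits was higher in KO3.20, where 5.88% of all genes were. Of the same 4, 1 was lower in KO1.5 than in KO1.4, where 3.19% of all genes were.

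Among the genes that separated KO3.20 from both other lines were genes of inflammatory cytokines, such as IL1B, IL8, CXCL1 and IL6, which were lower. Genes of adhesion and matrix proteins went both ways, with EDIL3, NID1 and FN1 higher and SPP1 lower. In the list of matrix glycoproteins and proteoglycans, 5 of the genes that separated KO3.20 were higher and 3 lower. Apart from these, the genes of 2 whole chromosomes were shifted in KO3.20, those of chromosome 20 downwards and those of chromosome 21 upwards. Of 17732 genes tested, 803 were higher and 557 lower in KO3.20 than in the mean of KO1.4 and KO1.5, 7.67% in all, by edgeR's quasi-likelihood test at a BH-adjusted p under 0.05. More than 2-fold changes were called for 404 genes, 266 higher (1.5%) and 138 lower (0.778%). A mean of 2 lines can be moved by either, so a gene was said to set KO3.20 apart only if it was also called against each line with the same sign, and if the smaller of these differences exceeded the difference between KO1.5 and KO1.4. This held for 218 higher (1.23%) and 168 lower genes (0.947%), 2.18% of those tested. Single libraries moved these counts: the main count of 1360 was 877 and 743 without replicate 1 or 2 of KO1.4, and 675 and 660 without replicate 1 or 2 of KO3.20. The 386 genes that set KO3.20 apart became 124 and 104, and 220 and 170, in the same order. With counts summed per line and the line as the replicate, 3 genes were called, AFF2, EDIL3 and IL1B.

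The 4 cytokine genes among the 12 lower genes named by rank are shown first by the 250 bases upstream of their RefSeq start (GRCh38.p14, 5′ to 3′ in the direction of the gene), because 3 of them share a sequence motif there. Capitals mark matches, on either strand, to GGANTTTCC, a form of the NF-kB site, and to TGANTCA, the AP-1 site. The motifs do not overlap each other in these sequences. IL8, named CXCL8 in RefSeq, lies on the plus strand at chr4:73740319-73740568, CXCL1 on the plus strand at chr4:73869143-73869392, IL6 on the plus strand at chr7:22726950-22727199 and IL1B on the minus strand at chr2:112836780-112837029.
IL8: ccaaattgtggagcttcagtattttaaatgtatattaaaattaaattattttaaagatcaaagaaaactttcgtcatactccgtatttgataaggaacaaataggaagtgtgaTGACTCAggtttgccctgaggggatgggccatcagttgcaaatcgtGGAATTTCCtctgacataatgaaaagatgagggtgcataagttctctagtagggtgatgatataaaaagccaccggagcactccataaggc
CXCL1: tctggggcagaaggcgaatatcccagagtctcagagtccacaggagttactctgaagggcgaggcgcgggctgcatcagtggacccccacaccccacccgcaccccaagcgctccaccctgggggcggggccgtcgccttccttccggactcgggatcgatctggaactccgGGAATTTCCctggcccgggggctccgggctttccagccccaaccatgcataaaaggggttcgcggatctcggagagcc
IL6: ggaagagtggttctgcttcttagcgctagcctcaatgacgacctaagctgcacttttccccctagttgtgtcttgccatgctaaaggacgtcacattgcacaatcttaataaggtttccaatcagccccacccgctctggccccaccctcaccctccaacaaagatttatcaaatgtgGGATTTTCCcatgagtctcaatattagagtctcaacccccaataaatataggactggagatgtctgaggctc
IL1B: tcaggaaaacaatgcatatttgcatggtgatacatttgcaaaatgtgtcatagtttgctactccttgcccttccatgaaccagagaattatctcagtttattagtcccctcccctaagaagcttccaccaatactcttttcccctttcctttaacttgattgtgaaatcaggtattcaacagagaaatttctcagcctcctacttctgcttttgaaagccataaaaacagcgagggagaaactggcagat
The NF-kB motif ended 82 bases before the start in IL8, 69 bases before it in CXCL1 and 63 bases before it in IL6. IL8 also had the AP-1 motif, 130 bases before the start, and the upstream window of IL1B held neither string of letters. Over 27305 promoter windows of this length, 1.47% held the NF-kB motif and 6.6% the AP-1 motif. Over the 10880 tested genes with a sequence, the shares were 1.46% and 4.02%. Of the 12 members of the cytokine list that fell in KO3.20 (described below with their values), 11 had a sequence and 6 of these held the NF-kB motif. Of the 12 tested members that were not called lower, 9 had a sequence and 4 held it. The list was drawn up to hold NF-kB targets, so a high share in it says nothing about KO3.20. Of the genes that set KO3.20 apart, 4 of 125 lower genes with a sequence held the motif (3.2%), and 1 of 165 higher genes (0.606%). The lower genes with the motif include IL8, CXCL1 and IL6 shown above, so the 3.2% is not separate from them. A match describes the letters only, and binding was not measured.

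IL1B, which encodes interleukin-1 beta, was at 71.6 and 75.7 CPM in KO1.4, at 77.6 and 70.7 CPM in KO1.5, and at 14.5 and 12.7 CPM in KO3.20. The 2 KO3.20 libraries stood far below the 4 others, which lay close together. The log2 fold change against the mean of the 2 lines was -2.44 ± 0.11 (adjusted p = 1.96e-07, edgeR). IL8, the neutrophil chemokine, was at 46.5 and 49.0 CPM in KO1.4, at 72.6 and 50.2 CPM in KO1.5 and at 16.4 and 13.7 CPM in KO3.20, a log2 change of -1.85 ± 0.15 (adjusted p = 2.23e-05). CXCL1, another neutrophil chemokine, was at 42.3 and 45.4 CPM, at 57.6 and 56.7 CPM, and at 16.1 and 14.2 CPM in the same order, a log2 change of -1.73 ± 0.10 (adjusted p = 1.72e-06). In both chemokines KO3.20 did not overlap the other lines. CXCL1, CXCL2 and CXCL3 are near-identical copies, and reads may be split among them. IL6, a cytokine that signals through gp130, was at 12.8 and 12.5 CPM in KO1.4, at 15.8 and 15.7 CPM in KO1.5 and at 5.48 and 6.73 CPM in KO3.20, a log2 change of -1.21 ± 0.13 (adjusted p = 0.000185). IL1A, interleukin-1 alpha, was at 225.2 and 231.2 CPM, at 192.6 and 173.7 CPM, and at 97.6 and 98.2 CPM, a log2 change of -1.06 ± 0.08 (adjusted p = 1.46e-05). KO3.20 did not overlap the other lines in IL6 or IL1A either. Such a lack of overlap was seen for 23.9% of all genes tested, with KO3.20 lower for 11.8%. IL1B, IL8, CXCL1 and IL6 were named by the size of their differences between the lines.

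Of 24 tested genes in the list of NF-kB targets, cytokines and chemokines, 12 were lower in KO3.20 and 0 were higher in the main comparison, where 3.14% of all genes were lower. The list's median log2 fold change was -0.48 against 0.001 over all genes tested, and 21 of the 24 values were negative. Against KO1.4 alone 9 members were lower and 0 higher, where 4.38% of all genes were called, 1.79% as lower and 2.59% as higher. Against KO1.5 alone 13 were lower and 1 higher, where 10.6% of all genes were called, 4.69% as lower and 5.88% as higher. These 2 comparisons share the KO3.20 libraries. With the line as the replicate 1 member was lower, and with voom and the line as a block 6 were. Of these, 6 set KO3.20 apart by the stricter rule, the 5 genes above and CCL2, a monocyte chemokine, which was named after its values were seen. CCL2 was at 2.29 and 3.07 CPM in KO1.4, at 4.61 and 3.86 CPM in KO1.5 and at 0.674 and 0.799 CPM in KO3.20. The core factor NFKB1 did not pass the test, with a log2 change of -0.04 ± 0.08 (adjusted p = 0.864). LIF (0.14 ± 0.11, adjusted p = 0.555) and IL11 (0.36 ± 0.13, adjusted p = 0.119), ligands of the same receptor family as IL6, did not pass it either. Immune markers were near 0 in all 6 libraries, with a summed level of 0.73 to 1.07 CPM in KO3.20 and 0.55 to 0.81 CPM in the others for the 2 tested of 11, and CD3D, CD3E and MS4A1 had no read. In bulk RNA, fewer cells that express a gene and less RNA per cell cannot be told apart.

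**Figure D1:**
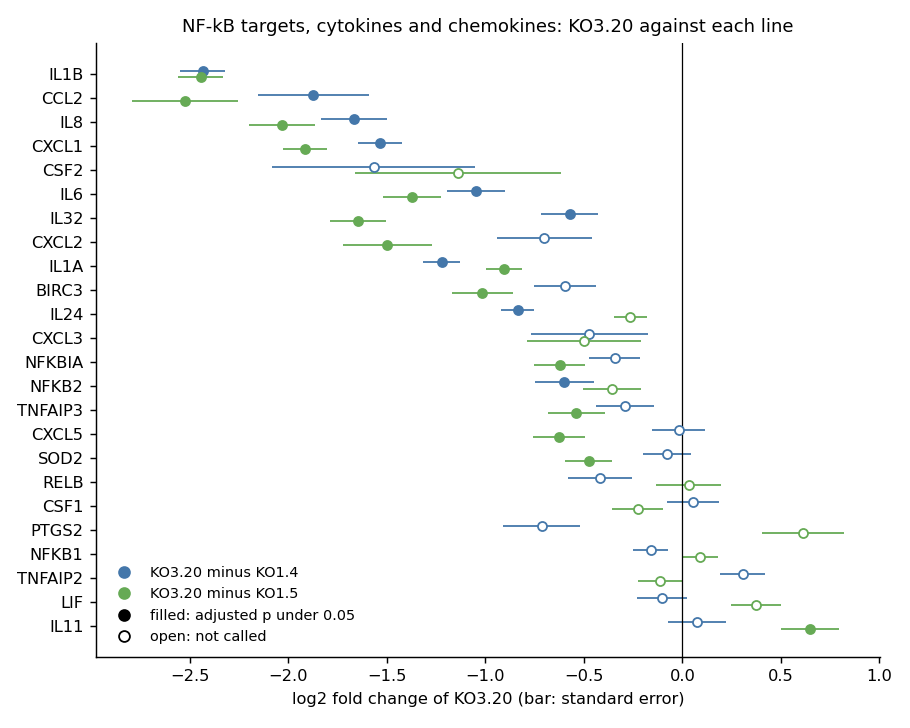
Log2 fold change of KO3.20 against KO1.4 (blue) and against KO1.5 (green) for the 24 tested NF-kB targets, cytokines and chemokines, with the standard error as a bar; filled points passed an adjusted p under 0.05. IL1B, CCL2, IL8 and CXCL1 lie at the top, lower in KO3.20 than in either line, and IL11 is higher than in KO1.5.

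The control lines, which stayed out of the test, did not share 1 level of these cytokines. IL1B was at 257.6 and 292.9 CPM in Par and at 38.1 and 49.7 CPM in NT, so KO3.20 was below all 8 other libraries of SKmel147. IL8 was at 70.0 and 149.9 CPM in Par but at 19.8 and 19.2 CPM in NT, which is closer to KO3.20 than to KO1.4 or KO1.5. IL6 was at 5.68 and 13.1 CPM in Par and at 2.33 and 2.41 CPM in NT, below KO3.20. CXCL1 was at 66.1 and 120.4 CPM in Par and at 17.7 and 20.4 CPM in NT. Par was above NT for IL1B, IL8, CXCL1 and IL6. IL1A went the other way, at 69.9 and 41.65 CPM in Par and at 100.1 and 114.7 CPM in NT. KO3.20, at 97.6 and 98.2 CPM of IL1A, was above Par and close to the lower NT library.

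Among the other genes lowest in KO3.20 was KRT81, a hair keratin, at 20.3 and 22.5 CPM in KO1.4, at 77.0 and 104.0 CPM in KO1.5 and at 3.55 and 2.66 CPM in KO3.20. Its log2 change was -3.82 ± 0.17 (adjusted p = 1.96e-07), and reads may be shared with near-identical hair keratins. SERPINB7, a serine protease inhibitor, was at 100.9 and 104.3 CPM in KO1.4, at 132.4 and 122.6 CPM in KO1.5 and at 23.6 and 27.0 CPM in KO3.20 (log2 change -2.18 ± 0.10, adjusted p = 1.96e-07). Both KO3.20 libraries were below the 4 others in each of these genes, as they were for 11.8% of all genes tested. KRT81 and SERPINB7 were also named by the size of their differences between the lines. SERPINB2, the plasminogen activator inhibitor of type 2, was at 38.0 and 35.1 CPM, at 58.2 and 57.2 CPM, and at 17.4 and 19.4 CPM. It was lowest of all in the control lines, at 1.12 to 7.91 CPM. INHBA, which encodes the beta-A subunit of activins, fell from 309.8 and 318.1 CPM in KO1.4, and 409.1 and 365.3 CPM in KO1.5, to 133.3 and 150.8 CPM (log2 change -1.30 ± 0.09, adjusted p = 6.17e-06). SPP1, the secreted matrix protein osteopontin, was at 49.1 and 54.6 CPM, at 100.8 and 97.5 CPM, and at 22.2 and 23.5 CPM. MGLL, a monoacylglycerol lipase, PRDM1, a transcriptional repressor, and NETO1, a subunit of glutamate receptor complexes, completed the 12 lower genes named by rank, with fold changes of 2.31 to 14.1 across the 12.

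The 12 higher genes ranged from 2.06-fold to 40.4-fold. AFF2, a gene of the X chromosome for a nuclear protein of the AF4 family, was at 0.381 and 0.207 CPM in KO1.4, at 0.296 and 0.147 CPM in KO1.5 and at 10.1 and 10.7 CPM in KO3.20 (log2 change 5.34 ± 0.23, adjusted p = 1.96e-07). SLITRK2, which encodes a synaptic adhesion protein, was at 0.952 and 1.52 CPM, at 0.355 and 0.736 CPM, and at 13.96 and 13.4 CPM (4.06 ± 0.21, adjusted p = 7.03e-07). NLGN4X, a neuroligin with a near-identical copy elsewhere in the genome, was at 0.524 and 1.14 CPM, at 3.25 and 2.80 CPM, and at 16.7 and 15.7 CPM (3.32 ± 0.18, adjusted p = 1.28e-06). These 3 genes lie on X, were close to silent in KO1.4 and KO1.5 or lower by several fold, and were at the level of the control lines or below it in KO3.20. The 4 control libraries had 9.10 to 10.99 CPM of AFF2, 21.8 to 25.4 CPM of SLITRK2 and 18.9 to 22.5 CPM of NLGN4X. FMR1, which lies between SLITRK2 and AFF2 on X, had a log2 change of 0.05 (adjusted p = 0.818), and X as a whole had a median of -0.009.

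EDIL3, an integrin-binding secreted protein, was higher in KO3.20 than in any other SKmel147 library, at 23.5 and 27.5 CPM against 2.71 and 3.21 CPM in KO1.4, 1.95 to 3.22 CPM in KO1.5 and 3.05 to 11.01 CPM in the control lines. SCG2, the secretogranin of neuroendocrine granules, was at 34.9 and 37.9 CPM in KO1.4, at 19.6 and 15.5 CPM in KO1.5 and at 115.9 and 109.7 CPM in KO3.20 (log2 change 2.15 ± 0.10, adjusted p = 1.96e-07). In the control lines SCG2 was at 9.72 to 10.8 CPM. NFIB, a transcription factor of the nuclear factor I family, was at 30.3 and 28.2 CPM, at 36.9 and 29.5 CPM, and at 76.9 and 91.99 CPM, and 1 of the 4 control libraries, at 61.6 CPM, came near that level. CELF2, an RNA-binding splicing factor, and RBPMS, another RNA-binding protein, were also higher, as were KIAA1217, OLFML2A and the neuroligin NLGN1. Of the 12 higher genes, all 4 control libraries lay nearer to KO3.20 than to either other line for 5 (AFF2, SLITRK2, NLGN4X, NID1 and RBPMS), and none did for 3. Of the 12 lower genes all 4 lay nearer to KO3.20 for 1, SERPINB2, and none for 5.

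**Figure D2:**
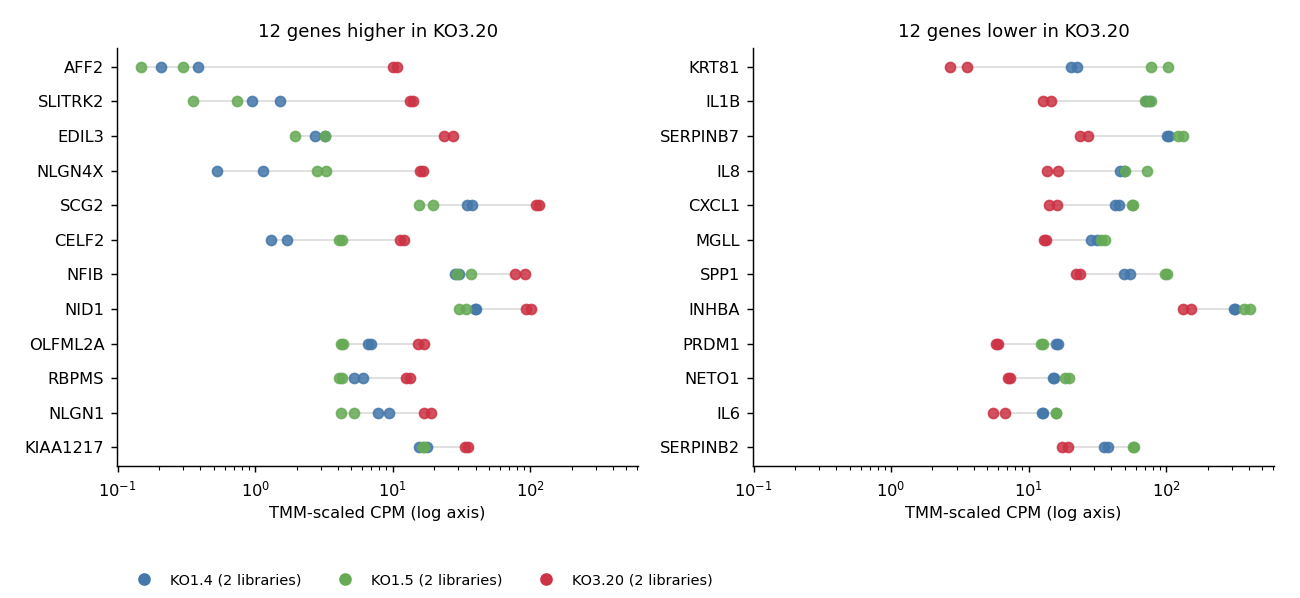
Level in CPM (log axis) of the 12 higher and 12 lower genes ranked by the smaller of the differences from KO1.4 and KO1.5; each point is a library, coloured by line. The 2 KO3.20 libraries (red) lie outside the range of the 4 others for every gene. They do so for 23.9% of all genes tested, and the genes shown were chosen by their differences between the lines. AFF2 spans 0.147 to 10.7 CPM.

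Genes for cell adhesion and matrix are given by list, beside 4.53% of all genes higher and 3.14% lower. Immunoglobulin-type adhesion molecules had 4 of 25 higher and 3 lower, integrins had 2 of 15 higher and 0 lower, and metalloproteases, the plasminogen system and serpins had 5 of 25 higher and 4 lower. Of 23 tested cadherins and protocadherins, 7 were higher and 0 lower, with a median of 0.63 and 22 positive values, where 4.53% of all genes were higher. CDH11, a cadherin of mesenchymal cells, was at 1.14 and 1.28 CPM in KO1.4, at 0.798 and 0.552 CPM in KO1.5 and at 3.12 and 3.73 CPM in KO3.20 (1.90 ± 0.23, adjusted p = 0.000352). CDH13, a cadherin without a transmembrane part, was at 77.7 and 81.6 CPM, at 79.4 and 73.2 CPM, and at 105.7 and 107.3 CPM (0.45 ± 0.08, adjusted p = 0.00451). PCDH1 and PCDH17, both protocadherins, had log2 changes of 0.77 ± 0.12 and 0.77 ± 0.13. Without replicate 2 of KO3.20 the count of cadherins fell to 3.

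Of 31 tested matrix glycoproteins and proteoglycans, 8 were higher and 4 lower, with a median of 0.05, where 4.53% of all genes were higher and 3.14% lower. The 8 became 5 with voom and the line as a block. SPP1, described above, was among the 4 (-1.65 ± 0.09). FN1, fibronectin, was at 168.7 and 162.1 CPM in KO1.4, at 139.3 and 134.8 CPM in KO1.5 and at 306.6 and 294.7 CPM in KO3.20 (1.00 ± 0.07, adjusted p = 8.75e-06). NID1, a linker of basement membranes, rose from 40.1 and 39.4 CPM, and 30.5 and 33.9 CPM, to 100.8 and 93.8 CPM (1.44 ± 0.08, adjusted p = 1.63e-06). VCAN, the proteoglycan versican, was at 158.7 and 153.5 CPM, at 130.6 and 118.8 CPM, and at 264.3 and 280.9 CPM (0.97 ± 0.08, adjusted p = 1.8e-05). Of 27 tested collagens and crosslinking enzymes, 8 were higher and 0 lower, with a median of 0.19. The 8 became 3 with voom and the line as a block and 3 with all 10 libraries, and 4 of the 27 genes lie on chromosomes 20 or 21, whose genes were shifted as a group. Of these, COL9A3 and COL18A1 were among the 8, and COL6A1 and COL6A2 were not called. LOXL3, a lysyl oxidase, was higher by 0.85 ± 0.10 and COL5A1 by 0.86 ± 0.11. COL5A2, by contrast, was at 15.1 and 12.2 CPM in KO1.4 and at 12.6 and 11.3 CPM in KO3.20 and low in KO1.5, at 2.28 and 1.55 CPM. Without replicate 2 of KO1.4, or without replicate 1 of KO3.20, 5 collagen genes were called.

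Of 48 tested axon guidance genes, 12 were higher and 1 lower, with a median of 0.22, where 4.53% of all genes were higher and 3.14% lower. The 12 became 2 with voom and the line as a block and 6 with all 10 libraries in the fit. SEMA3B, a secreted semaphorin, was at 60.1 and 49.2 CPM in KO1.4, at 22.9 and 27.0 CPM in KO1.5 and at 104.2 and 92.3 CPM in KO3.20 (1.41 ± 0.10, adjusted p = 1.02e-05). Its level in KO1.4 was between the 2 other lines. PLXND1, a semaphorin receptor, was at 0.381 and 0.517 CPM, at 0.591 and 0.589 CPM, and at 1.99 and 2.80 CPM. Of the axon guidance list, 4 members were higher than in KO1.4 alone, where 2.59% of all genes were. Against KO1.5 alone 12 were higher, where 5.88% of all genes were. Without replicate 2 of KO1.4 the 12 became 7, and without replicate 1 of KO3.20 they became 6. The synaptic list, with 2 of 24 genes higher (SCG2 and NLGN1), and the HOX genes, with 2 of 31 higher (HOXA5, 0.89 ± 0.11, and HOXA3, 0.71 ± 0.11), were near the 4.53% of all genes that were higher, and 0 of either list were lower.

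Signalling genes were called in both directions. Over all genes 4.53% were higher and 3.14% lower. Of 43 receptor tyrosine kinases and their ligands, 4 were higher and 5 lower. TGFA, a ligand of the EGF receptor, was at 108.1 and 111.5 CPM in KO1.4, at 100.4 and 79.7 CPM in KO1.5 and at 200.4 and 204.0 CPM in KO3.20 (1.02 ± 0.09, adjusted p = 4.74e-05), against 13.1 to 22.2 CPM in the control lines. FGF5, a fibroblast growth factor, went the other way, at 71.8 and 81.2 CPM, at 114.2 and 104.6 CPM, and at 42.1 and 49.5 CPM (-0.9996 ± 0.1012, adjusted p = 0.000102). ROR1, a receptor for WNT5A, was higher by 1.71 ± 0.18, and DKK1, an inhibitor of WNT signalling, was lower by 0.68 on the log2 scale (at 64.8 and 69.0 CPM in KO3.20 against 104.5 to 112.6 CPM in the others). Of 27 WNT pathway genes 3 were higher and 3 lower, and of 24 genes of the TGF-beta response 6 were higher and 3 lower. SOX2, a stem cell transcription factor, was at 2.66 and 2.53 CPM in KO3.20 and at 0.074 to 0.345 CPM in the other 2 lines (3.26 ± 0.35, adjusted p = 0.00014). Of 42 nuclear genes of oxidative phosphorylation and 20 genes of the unfolded protein response 0 were called, and of 34 G2/M genes 1 was, AURKA, which lies on chromosome 20.

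Some lists differed mainly between KO1.5 and the other 2 lines. Of 25 antigen presentation genes, 10 were higher and 1 lower in the main comparison, where 4.53% of all genes were higher and 3.14% lower. The 10 became 0 with voom and the line as a block and 1 with all 10 libraries in the fit. Against KO1.4, 2 were higher and 2 lower, where 2.59% of all genes were higher and 1.79% lower. Against KO1.5, 14 were higher and 2 lower, where 5.88% of all genes were higher and 4.69% lower. Between KO1.5 and KO1.4, 15 were lower and 0 higher in KO1.5. There 6.37% of all genes were called, 3.19% as lower and 3.18% as higher. HLA-DMB, which helps to load peptides on class II molecules, was at 351.8 and 340.4 CPM in KO1.4, at 157.2 and 157.8 CPM in KO1.5 and at 507.8 and 474.2 CPM in KO3.20. It was higher in KO3.20 than in KO1.4 by 0.50 ± 0.09 (adjusted p = 0.00638) and than in KO1.5 by 1.64 ± 0.09 (adjusted p = 6.9e-07). CIITA, the master regulator of class II transcription, was at 103.0 and 93.4 CPM, at 41.1 and 44.9 CPM, and at 122.5 and 116.03 CPM, and its difference from KO1.4 did not pass the test (0.28 ± 0.10, adjusted p = 0.166). HLA genes are alike in sequence, and their reads may be split.

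The p53 targets had 1 of 27 higher and 3 lower in the main comparison (7.67% of all genes called) and 0 called against KO1.4 (4.38% called). Against KO1.5, where 4.69% of all genes were lower, 12 were lower. CDKN1A, the p21 inhibitor of cyclin-dependent kinases, was at 152.9 and 152.7 CPM in KO1.4, at 251.1 and 261.4 CPM in KO1.5 and at 155.6 and 142.5 CPM in KO3.20, so that KO3.20 differed from KO1.5 (-0.78 ± 0.09, adjusted p = 0.000217) while its value against KO1.4 was -0.04 ± 0.09 (adjusted p = 0.927). Against the same shares, 8 of 24 genes of cholesterol synthesis and uptake were lower than in KO1.5 and 0 were called against KO1.4. TIMP3, an inhibitor of metalloproteases that overlaps another gene on the opposite strand, had the smallest adjusted p of all genes in the main comparison (2.53e-09) and was ordered over the 3 lines. It was at 1.63 and 1.43 CPM in KO1.5, at 17.2 and 16.04 CPM in KO1.4 and at 67.0 and 67.1 CPM in KO3.20. TGFB1, transforming growth factor beta 1, had the same order, at 9.07 and 9.34 CPM in KO1.5, at 25.2 and 23.9 CPM in KO1.4 and at 45.5 and 39.2 CPM in KO3.20.

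**Figure D3:**
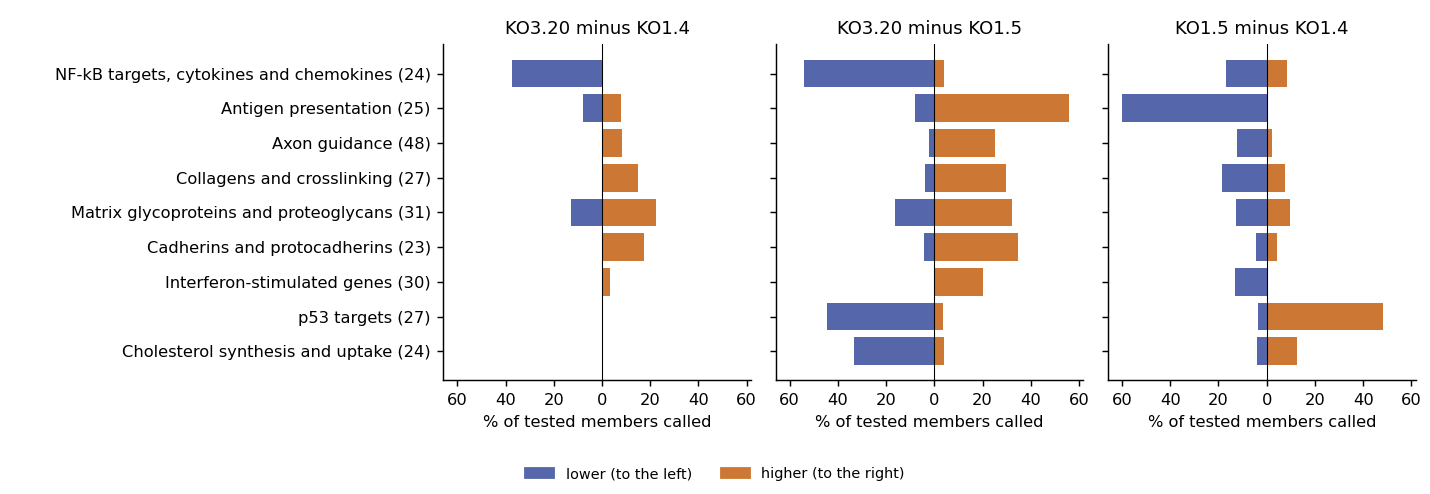
Percent of the tested members of 9 gene lists called higher (orange, to the right) or lower (blue, to the left) in each pair of lines; the number tested stands in brackets. The cytokine list is lower in KO3.20 against both other lines (9 and 13 members), whereas antigen presentation, with 15 members lower in KO1.5 than in KO1.4, and p53 targets, with 13 higher there, differ mainly with KO1.5.

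Genes of chromosome 20 were lower in KO3.20 as a group. Over 329 genes of this chromosome with a mean of at least 1 CPM, the median log2 fold change was -0.32, a fold of 0.800, and 89.7% of the genes had a negative sign. The median level per library, against the mean of the 3 lines, was 0.125 and 0.114 in KO1.4, 0.043 and 0.137 in KO1.5 and -0.184 and -0.240 in KO3.20. Both KO3.20 libraries were thus below the 4 others. Over all genes tested 7.67% were called, 3.14% as lower. Of 383 tested genes of the chromosome 137 were called, or 35.8%, and 131 of them were lower. They included BCL2L1, which encodes the apoptosis inhibitor BCL-xL, at 96.3 and 93.0 CPM in KO1.4, at 104.6 and 114.4 CPM in KO1.5 and at 71.7 and 66.1 CPM in KO3.20. PCNA, the sliding clamp of DNA replication, had a log2 change of -0.33 ± 0.08, AURKA, a mitotic kinase, of -0.28 ± 0.08, SS18L1, a BAF subunit, of -0.44 ± 0.10 and CEBPB, a leucine zipper transcription factor, of -0.74 ± 0.13. BMP2, a growth factor, had a larger decrease, of -1.04 ± 0.11, and COL9A3, a collagen, went against the chromosome with 1.70 ± 0.22. The chromosome held 61 of the 168 lower genes that set KO3.20 apart, or 36.3%, and 383 of the 17732 genes tested.

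Genes of chromosome 21 were higher. Their median log2 fold change over 128 genes was 0.34, a fold of 1.26, and 82.0% had a positive sign. The median level per library was -0.082 and -0.118 in KO1.4, -0.095 and -0.107 in KO1.5 and 0.186 and 0.223 in KO3.20. Of 154 tested genes of the chromosome 50 were called, or 32.5%, and 49 of them were higher. Over all genes tested 7.67% were called, 4.53% as higher. CHAF1B, a subunit of the chromatin assembly factor, was at 23.7 and 26.1 CPM in KO1.4, at 23.1 and 24.4 CPM in KO1.5 and at 37.5 and 35.5 CPM in KO3.20 (0.59 ± 0.09, adjusted p = 0.00225). ADAMTS1, a secreted protease of the chromosome, went the other way (-0.74 ± 0.11). The chromosome held 19 of the 218 higher genes that set KO3.20 apart, or 8.72%, and 154 of the 17732 genes tested.

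The medians of the 21 other chromosomes lay between -0.06, on chromosome 8, and 0.12, on chromosome 9. The 2 chromosomes were singled out after their values were seen, so these medians are a description with no test. In bins of about 40 neighbouring genes, all 8 bins of chromosome 20 had medians of -0.35 to -0.28, and all 3 bins of chromosome 21 had medians of 0.30 to 0.36. Of 313 bins on other chromosomes, 8 lay beyond 0.2 in size. Against the 4 control libraries, measured in a set of all 10 SKmel147 libraries, KO3.20 stood apart as well. Chromosome 20 medians were -0.045 to 0.069 in the controls and -0.199 and -0.262 in KO3.20, and chromosome 21 medians were -0.104 to -0.071 in the controls and 0.256 and 0.274 in KO3.20. DNA was not measured.

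**Figure D4:**
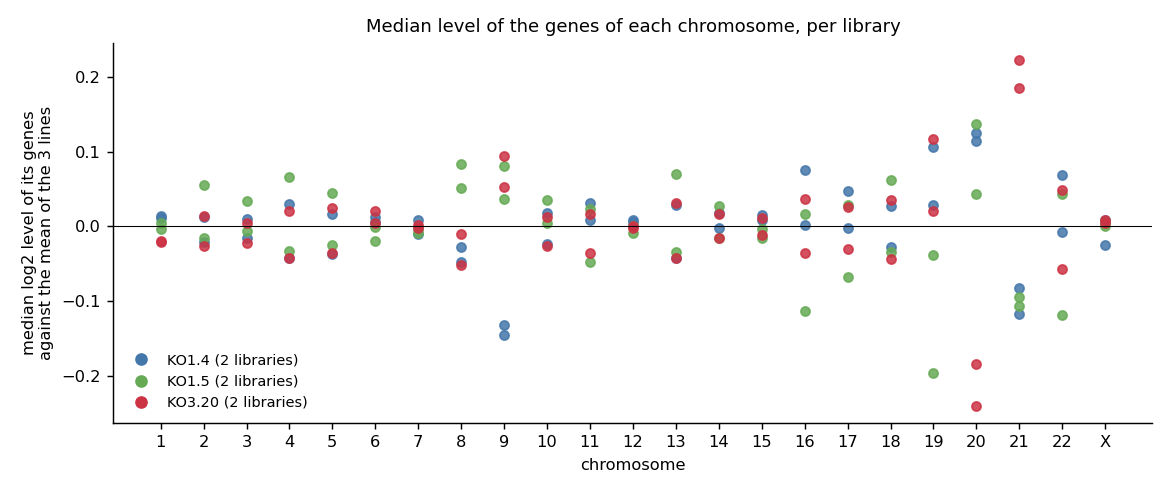
Median log2 level of the genes of each chromosome (mean of at least 1 CPM) per library, against the mean of the 3 lines; points are libraries, coloured by line. KO3.20 (red) is at -0.184 and -0.240 on chromosome 20 and at 0.186 and 0.223 on chromosome 21, and KO1.4 (blue) is low on chromosome 9.

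Other chromosomes had bins that differed from 1 of the other 2 lines and not, or less, from the other. On chromosome 9, the bins from the fifth to the last were higher in KO3.20 than in KO1.4 by medians of 0.25 to 0.42, while against KO1.5 these bins lay between -0.07 and 0.08. On chromosome 8, the bins of 1 end were higher in KO3.20 than in KO1.5 by 0.23 to 0.47 and the others lower by 0.18 to 0.39, and all differed from KO1.4 by at most 0.06. On chromosome 19 the second part of the gene order was higher in KO3.20 than in KO1.5 by 0.22 to 0.40. Within that part 2 bins were also higher than in KO1.4, by 0.23 and 0.26. On chromosome 6, 2 neighbouring bins that span class II HLA genes were higher in KO3.20 than in KO1.5 by 0.26 and 0.35 and differed from KO1.4 by 0.03 and -0.01. They hold genes of the antigen presentation list above, and their part in its counts was not tested.

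**Figure D5:**
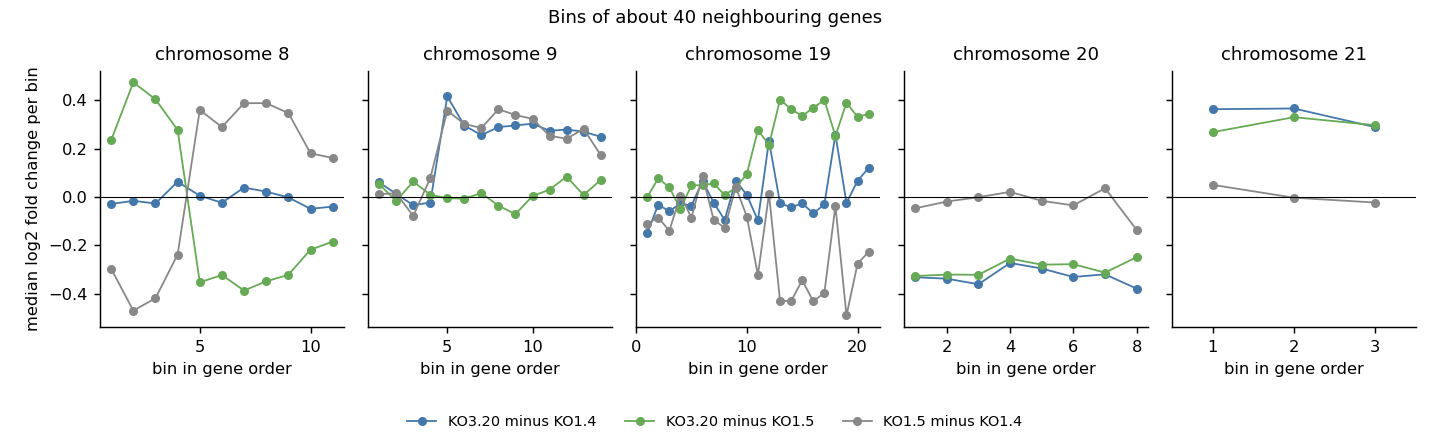
Median log2 fold change of bins of about 40 neighbouring genes on 5 chromosomes, for KO3.20 minus KO1.4 (blue), KO3.20 minus KO1.5 (green) and KO1.5 minus KO1.4 (grey). On chromosomes 20 and 21 blue and green lie together, away from 0, and grey lies near 0; on chromosome 8 and in most bins of the second part of chromosome 19 green and grey mirror each other, and on chromosome 9 blue and grey run together.

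When the genes of chromosomes 20 and 21 were left out of the count, 1173 genes remained called in the main comparison and 305 set KO3.20 apart. None of the 24 tested members of the cytokine list lies on these chromosomes.

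Counted in 1 fit of all 10 SKmel147 libraries, 348 of 18361 genes (1.9%) differed between KO3.20 and KO1.4, 399 (2.17%) between KO1.5 and KO1.4, and 964 (5.25%) between KO3.20 and KO1.5. The counts for KO3.20 and KO1.4 and for KO1.5 and KO1.4 have no fixed order: in the fit of 6 libraries they were 777 and 1129, and 1255 and 823 without replicate 1 of KO1.5. The control lines NT and Par differed by 1702 genes (9.27%). Pairs that share a line share its libraries.

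In 501mel, a melanoma cell line with BRAF V600E, the ARID2 knockout lines KO5.2 and KO1.8 differed by 6697 of 15517 genes tested, or 43.2%. Of the higher genes that set KO3.20 apart, 141 were tested in both cell lines, and 49 of them (34.8%) were higher and 47 (33.3%) lower in KO5.2, where 21.4% and 22% of the genes tested in both were called. Of 112 lower genes tested in both, 37 (33.0%) were lower and 22 (19.6%) higher. The 49 shared higher genes were 1.62% of the higher calls in 501mel and the 37 shared lower genes were 1.19% of its lower calls. The labels do not pair KO5.2 with KO3.20, so the sign of the 501mel difference is arbitrary. FN1 had the same sign in both, with 0.91 in 501mel (adjusted p = 2.38e-07), as did SPP1, with -2.86 there (adjusted p = 4.14e-05). So did CELF2 (0.31), RIMS2 (-3.78) and WWC1 (-0.50). SCG2 had opposite signs, with -3.56 in 501mel (adjusted p = 4.52e-05), as did SLITRK2 (-3.48), NLGN4X (-1.19), RAP1GAP2 (0.94) and HMGA2 (0.22).

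Totals ranged from 21266522 to 33509778 counts over the 6 libraries. Counts of the 2 libraries of each line differed beyond sampling noise (chi-square divided by its degrees of freedom 13.6 to 27.9), and the difference followed GC content, with a Spearman rho over genes of 0.38 to 0.61 in size. Over 14959 genes, the fold changes of the main comparison followed GC content with a rho of 0.06. It averages 2 comparisons with trends of opposite sign. The rho was -0.10 for KO3.20 minus KO1.4 and 0.16 for KO3.20 minus KO1.5. For KO1.5 minus KO1.4 it was -0.26. Melanoma markers did not separate the lines. The 7 tested of 12 summed to 464.8 to 532.0 CPM in KO3.20 and 425.0 to 497.0 CPM in the others, with 0 called, and SOX10 was at 154.5 to 223.3 CPM and MITF at 11.2 to 15.5 CPM. The pigment genes PMEL, TYR, TYRP1 and DCT were below 1 CPM in every library, so the label melanoma rests on SOX10, MITF, MCAM and PAX3. The 3 tested fibroblast markers of 11 summed to 17.2 to 17.8 CPM in KO3.20 and 12.8 to 18.6 CPM in the others, with DCN and POSTN at 0. Endothelial markers, 3 tested of 10, summed to 3.96 to 5.36 CPM against 6.77 to 9.71 CPM, mostly ROBO4, which was lower (-0.76 ± 0.18, adjusted p = 0.023), and EMCN and ERG were at 0. Keratinocyte and epithelial markers, 6 tested of 13, summed to 111.7 to 130.01 CPM against 122.4 to 144.3 CPM, with KRT8 higher, CLDN1 lower and KRT1 at 0. The part of these markers in the results above was not tested.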

How the data were processed

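Per the labels' protocols, polyadenylated RNA was made into libraries with a directional kit. The submitters' processing notes name STAR 2.6.0, featureCounts and the builds GRCh37 and hg19. The authors deposited raw counts per gene symbol (56629 symbols), 1 column per library. Strand setting, annotation release and treatment of multi-mapping reads: not given in the sources used here. Overlapping genes and near-identical copies are therefore uncertain.

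The 6 libraries were fitted in R 4.3.3 with edgeR 4.0.16 (TMM scaling, filterByExpr by line, 1 coefficient per line, quasi-likelihood test, BH over all genes tested, adjusted p under 0.05). The standard error is the log2 fold change divided by the square root of F. CPM values are TMM-scaled, and levels of Par and NT come from a scaling of all 10 libraries. The 501mel lines were fitted apart. The genes were named by a rule. It takes 12 genes per direction that set KO3.20 apart, at 10 CPM or more on the higher side and ranked by the smaller pairwise change, and up to 4 called members per list by smallest p. It also takes up to 5 per direction that are called in 501mel, and ARID2. Genes with at most 3 counts on 1 side and at least 5 CPM on the other would have been named too, and there were 0. The 52 gene lists, the lines compared and the tests were chosen with earlier results of these data known. NFKB1, LIF, IL11, CCL2 and the PBAF subunits were added after their values were seen, as were FMR1 and the markers. Chromosomes come from GENCODE 29, which matched 35365 symbols (1332 by an older symbol) and is on another build than the files, so that no coordinate of it is given. Upstream sequences come from RefSeq (GRCh38.p14). Per-library chromosome medians use log2(CPM + 0.5). The methods were tested on simulated data. Alternatives were DESeq2 1.42.0 size factors and Wald test, no low-count filter, all 10 libraries, a replicate block, offsets for GC content and length, each library left out, the line as the replicate, limma 3.58.1 voom with the line as a block, either line alone and a 2-fold limit. A count without chromosomes 20 and 21 was chosen after seeing the data.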

Additional observations from a re-analysis of the deposited data

How the results depend on the processing

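With 2 libraries per line and lines of unknown origin, a difference between lines cannot be told apart from a difference between the cells they were grown from. With the line as the replicate, 3 genes were called of 20380 (1115 at an unadjusted p under 0.05; smallest adjusted p 0.0202), and with voom and the line as a block 300. All counts below are from edgeR's quasi-likelihood test unless another tool is named. The median of chromosome 20 kept its sign under every alternative run, and that of chromosome 21 ranged from 0.31 to 0.345 with each library left out. The 24 genes named by rank kept their direction and their call in all but 3 alternatives. In these, 1 was lost with all 10 libraries, 21 with the line as the replicate and 1 with voom. Their calls against KO1.4 alone and KO1.5 alone were required by the rule that chose them, so these 2 alternatives could not fail. The causes of the changes below were not tested.

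The main count of 1360 became 696 with all 10 libraries, 869 with a replicate block, 2767 with GC and length offsets, 777 against KO1.4 alone, 404 with a 2-fold limit and 660 to 1847 with 1 library left out. KO3.20 minus KO1.4 (777) gave 1180 with no low-count filter, 348 with all 10 libraries, 427 with a replicate block, 1651 with GC and length offsets, 1206 with these and the block, and 201 to 1255 with 1 library left out (230 and 201 without replicate 1 or 2 of KO1.4, 1255 and 1237 of KO1.5, 469 and 344 of KO3.20). KO3.20 minus KO1.5 (1874) gave 964 with all 10 libraries, 1199 with a replicate block, 3528 with the offsets and 1014 to 2390 with 1 library left out (1014 and 1161 without replicate 1 or 2 of KO3.20). KO1.5 minus KO1.4 (1129) gave 1705 with no filter, 399 with all 10 libraries, 608 with a replicate block, 2215 with the offsets and 301 to 1959 with 1 library left out (301 and 361 without replicate 1 or 2 of KO1.4, 1959 without replicate 2 of KO1.5). The genes that set KO3.20 apart (386) numbered 161 with all 10 libraries, 207 with a replicate block, 862 with the offsets, 622 with the offsets and the block, 172 with a 2-fold limit and 104 to 499 with 1 library left out; the lowest counts, 104 and 124, came without either library of KO1.4.

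Replicate numbers share only a number: the correlations of the R1 minus R2 differences between lines were -0.194, 0.088 and -0.42. The 12 lower cytokine genes became 1 with the line as the replicate, 6 with voom and 10 to 14 with 1 library left out. In the next lists, counts of higher genes against KO1.4 alone stand beside 2.59% of all genes. Cadherins (7) became 0 with the line as the replicate, 4 against KO1.4 alone and 3 to 8 with 1 library left out. Axon guidance (12) became 6 with all 10 libraries, 0 with the line as the replicate, 2 with voom, 4 against KO1.4 alone and 6 to 14 with 1 library left out. Antigen presentation (10) became 1 with all 10 libraries, 0 with the line as the replicate, 0 with voom, 2 against KO1.4 alone and 8 to 11 with 1 library left out. Collagens (8) became 3 with all 10 libraries, 5 with a replicate block, 0 with the line as the replicate, 3 with voom, 4 against KO1.4 alone and 5 to 9 with 1 library left out. Matrix glycoproteins (8) became 0 with the line as the replicate, 5 with voom and 6 to 9 with 1 library left out. ARID2 was called lower with GC and length offsets (-0.34, adjusted p = 0.00309), with these and the replicate block (-0.34, adjusted p = 0.0125) and without replicate 2 of KO1.5, and ranged from -0.43 to -0.20 with 1 library left out. Against KO1.4 alone the sign turned for PLK2 (0.12), TM7SF2 (-0.081), COL5A2 (-0.19) and MAML3 (-0.14). The 501mel count stayed within 1.5 times.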
